A study of Homo sapiens with 9 samples.

Results

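Control RT112 cells are described here from 3 of the 9 RNA-sequencing libraries of a study that silenced the cohesin gene STAG2. RT112 is an established human bladder cancer cell line, so every value comes from 1 line. The control libraries, shNT replicates 1, 2 and 3, came from cells transduced with a control short hairpin RNA, and they were chosen by that label alone. The other 6 libraries came from cells carrying 1 of 2 hairpins against STAG2 (sh1 and sh2, with 3 libraries each). All cells, controls included, were first grown with fetal bovine serum, then transduced with a hairpin and moved to medium without serum, so the baseline is that of transduced and serum-deprived cells. Nothing in the labels says that the replicates were separate cultures, so the spread between them may be partly technical. Values are FPKM (fragments per kilobase of transcript, relative to the mapped fragments of the library), a scale per transcript length on which the levels of different genes can be compared, for 23278 entries, mostly genes.

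The urothelium, the lining of the bladder, is built of basal cells on the basement membrane, intermediate cells above them and umbrella cells at the lumen. Basal cells are known for keratins 5, 14 and 17 and for the transcription factor p63, while umbrella cells are known for keratin 20 and for uroplakins, the membrane proteins that seal the bladder surface. Bladder cancers are grouped as luminal or basal by the same genes, with GATA3, FOXA1 and PPARG as transcription factors of the luminal kind.

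STAG2, the targeted gene, matched the labels. It stood at 16.8, 34.7 and 27.7 FPKM in shNT replicates 1, 2 and 3, and at 3.41 to 5.34 FPKM in the 6 silenced libraries, so the groups did not overlap. Its mean was 26.4 ± 9.02 FPKM (SD, n = 3) in controls against 4.17 ± 0.795 FPKM (SD, n = 6), a difference of silenced minus control of -2.36 (SE 0.21) on the log2(FPKM + 1) scale with an adjusted p of 0.00797 (limma). An exact two-sided permutation test of 6 against 3 libraries gave p = 0.0238, the smallest p that free exchange of the libraries allows. The limma fit above used the groups only. With the replicate numbers as a block its adjusted p was 0.00466. Replicate numbers were taken to pair the libraries, though the labels do not say what a number marks. An exact permutation within the 3 replicate numbers (27 arrangements, two-sided) could reach no less than p = 0.0741, which was its value. The limma adjusted p was 0.0561 without shNT replicate 3 and 0.0616 with no filter on low values.

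Depth in reads is not given by the table. The summed FPKM of the controls without spike-ins was 516464, 402762 and 434433 in replicates 1 to 3. Spike-in RNA made up 1.44% to 1.64% of the total with spike-ins included. shNT replicate 3 stood apart from the rest: in 62 entries it lay more than 1 log2 unit above all 8 other libraries and in 87 entries as far below all 8. The same counts were 9 and 50 for shNT replicate 1, 0 and 0 for shNT replicate 2, and at most 6 in any silenced library. In shNT replicate 1 short transcripts stood higher relative to the other controls, as described with the spread below.

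**Figure D1:**
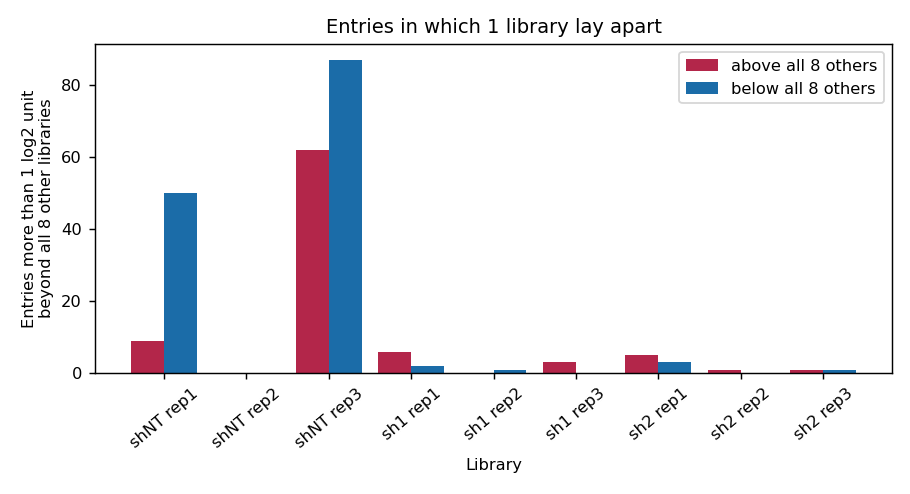
Bars count the entries in which 1 library lay more than 1 log2 unit above (red) or below (blue) all 8 other libraries, on the log2(FPKM + 1) scale, for the 9 libraries on the horizontal axis. shNT replicate 3 has 62 and 87 such entries and shNT replicate 1 has 9 and 50.

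A mean of 1 FPKM or more over the 3 controls was reached by 11944 entries (51.3%), and 11316 (48.6%) reached 1 FPKM in all 3 libraries. A further 6588 entries lay above 0 but under 1 FPKM, and 4746 (20.4%) were listed at 0 in all 3. Of these, 3816 were listed at 0 in all 9 libraries. An exact 0 in this table can be a failed estimate. SLC25A6, a mitochondrial ADP/ATP carrier used by most cells, and BOLA2 and RPS17L, which have near-identical copies in the genome, were also listed at 0, so such entries are called listed at 0 and not absent.

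Expression was concentrated in few entries. Among entries at 1 FPKM or more, the median mean was 11.5 FPKM, the 10th percentile was 2.09 FPKM and the 99th percentile was 524 FPKM. There were 687 entries at 100 FPKM or more and 62 at 1000 FPKM or more. The 10 most abundant entries held 6.02% ± 0.723 (SD, n = 3) of the summed FPKM and the 100 most abundant held 28.5% ± 3.22. That share was 31.5% in replicate 1 and 25.1% in replicate 2, with replicate 3 between them. Of the summed mean FPKM, 50% lay in 460 entries.

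**Figure D2:**
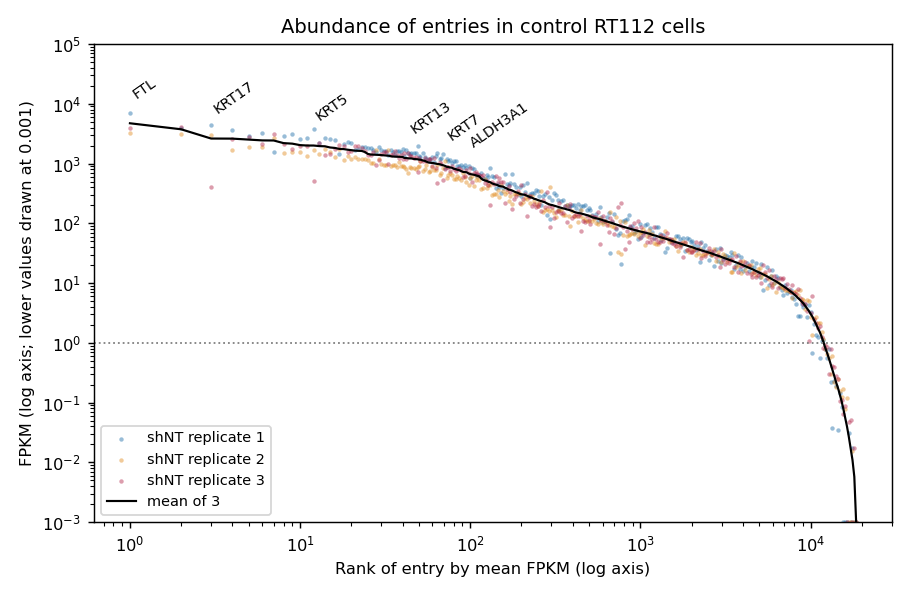
The black line is the mean FPKM of the 3 control libraries against the rank of the entry, both on log axes, and colored points are the single libraries at ranks sampled along the line. The dotted line marks 1 FPKM, which the 11944 highest entries reach; KRT17 and KRT5 are the entries at the far left whose replicate 3 point lies far below the others.

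Protein synthesis supplied most of the top of the list. Of the 25 most abundant entries, 13 were ribosomal protein genes, led by RPL37A at 3601, 1671 and 2554 FPKM in replicates 1, 2 and 3. The family as a whole (84 entries, of which 80 reached 1 FPKM in all 3 libraries) had a median of 853 FPKM, against a median of 1.25 FPKM over all entries, and held 17.0% ± 2.99 (SD, n = 3) of the summed FPKM. EEF1A1, which brings aminoacyl-tRNA to the ribosome, came next after FTL at 3937, 3175 and 4104 FPKM, and TPT1, the translationally controlled tumor protein, stood at 2851, 1882 and 2801 FPKM. Replicate 1 was the highest library for RPL37A and TPT1, and replicate 2 was the lowest for all 3 of these genes.

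Among the others were the ferritins. FTL, the light chain of ferritin, was the most abundant entry of all with 7063, 3207 and 3873 FPKM, a mean of 4714 ± 2061 (SD, n = 3), and FTH1, the heavy chain, stood at 2266, 1313 and 1530 FPKM. GAPDH of glycolysis stood at 3083, 1587 and 1779 FPKM. S100A11 and S100A6, calcium-binding proteins of epithelial cells, had means of 1941 and 1449 FPKM, and TMSB4X, which binds free actin, had a mean of 1855 FPKM. For FTL, FTH1, GAPDH and S100A11 replicate 1 was the highest library.

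Keratin 17 and keratin 5 ranked 3 and 12 by their means and differed widely between the controls. KRT17 stood at 4417 FPKM in replicate 1, 3025 in replicate 2 and 410 in replicate 3, where it ranked 157. KRT5 stood at 3817, 1664 and 518 FPKM and ranked 125 in replicate 3. Without replicate 3 they ranked 2 and 4, with means of 3721 and 2741 FPKM. In the 6 silenced libraries KRT17 lay between 2978 and 4348 FPKM, a range that holds replicate 2 and leaves replicate 3 far below.

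The ribosomal protein genes were also looked at by the sequence of their starts. Their mRNAs are known to begin in a run of pyrimidines, the 5′ terminal oligopyrimidine tract, through which the cell adjusts their translation to nutrients and growth signals. RefSeq promoters on GRCh38.p14 were searched on the sense strand for CTTTC or CTTCC between 5 bases before and 10 after the annotated start. The letters were found in 35 of the 66 ribosomal protein genes that had a promoter in the table (53.0%; 82.5% of the 80 expressed genes matched). They were found in 378 of 4793 promoters of entries at 10 to 100 FPKM, 65 of 519 at 100 to 1000 FPKM, and 1534 of all 27195 RefSeq promoters searched (5.64%). A match is a description of letters and not proof of a working tract. Some of the most abundant genes are shown from 10 bases before to 20 after the start, with the matched letters in capitals.
RPL37A (chr2:216498834-216498863, plus strand): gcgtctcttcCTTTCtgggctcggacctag
RPLP1 (chr15:69452808-69452837, plus strand): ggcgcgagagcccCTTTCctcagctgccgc
RPL41 (chr12:56116623-56116652, plus strand): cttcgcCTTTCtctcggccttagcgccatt
RPS12 (chr6:132814559-132814588, plus strand): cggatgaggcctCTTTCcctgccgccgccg
RPS3A (chr4:151099618-151099647, plus strand): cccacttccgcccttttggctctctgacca
RPS6 (chr9:19380217-19380246, minus strand): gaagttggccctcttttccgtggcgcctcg
EEF1A1 (chr6:73521013-73521042, minus strand): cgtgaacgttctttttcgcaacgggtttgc
TPT1 (chr13:45341164-45341193, minus strand): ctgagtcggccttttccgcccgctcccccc
FTL (chr19:48965299-48965328, plus strand): acgtcccctcgcagttcggcggtcccgcgg
RPS3A, RPS6, EEF1A1 and TPT1 do not have these letters in the window, which says nothing about the tract itself. FTL, the most abundant entry, lacks them too.

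Several abundant entries were not ordinary messages. MTRNR2L2, MTRNR2L8 and MTRNR2L1 are nuclear genes that resemble the 16S ribosomal RNA of mitochondria, and they had means of 1757, 808 and 170 FPKM. Over 1299 aligned bases MTRNR2L8 was 93.1% identical to the mitochondrial 16S gene MT-RNR2, and MTRNR2L1 was 88.8% identical over 1525 bases. No entry of the table is named as a mitochondrially encoded gene, and fragments of the 16S RNA and of its nuclear copies cannot be told apart here. MIR4461, a microRNA entry, ranked seventh with 1539, 2652 and 3091 FPKM.

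Most other microRNA entries were listed at 0. Of 1206 such entries 1042 were listed at 0 in all 3 controls and 28 had a mean of 1 FPKM or more. MIR205 lies within an exon of its host MIR205HG, and stood at 11.4, 12.9 and 8.18 FPKM while the host stood at 190, 118 and 123 FPKM. The microRNA made from it is known for keeping epithelial cells epithelial by repressing ZEB1 and ZEB2. Its mature form is shown from RefSeq (GRCh38.p14, chr1:209432166-209432187, plus strand), with the seed in capitals.
hsa-miR-205-5p: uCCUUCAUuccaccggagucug
In the same cells ZEB1 was at most 0.0505 FPKM in any control library and ZEB2 was listed at 0 in all 3. No value here measures the mature form, and a link between it and the levels of ZEB1 or ZEB2 was not tested. MIR3064, at a mean of 27.6 FPKM, likewise lies in an exon of a gene, the helicase DDX5 (174 ± 20.6 FPKM, SD, n = 3), so reads of host and microRNA cannot be told apart.

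Junction genes of epithelia were present in all 3 controls. Of 32 genes of epithelial junctions 29 reached 1 FPKM in all 3 libraries, against 48.6% of all entries, with a median of 40.3 FPKM. PERP, a desmosome protein, stood at 456, 485 and 330 FPKM, CLDN1 at 327, 438 and 483 FPKM, and JUP (plakoglobin) at 275, 284 and 197 FPKM. CDH1, E-cadherin, stood at 80.9, 102 and 75.3 FPKM, and EPCAM at 72.1, 57.8 and 77.8 FPKM. The sum over the list was 2709, 2908 and 2688 FPKM. Of the list, CLDN7 (9.39, 14.5 and 49.3 FPKM) and TJP3 (0.439, 1.41 and 4.9 FPKM) were more than 1 log2 unit above all 8 other libraries in replicate 3. Among 23 cadherins only CDH1, CDH3 (P-cadherin) and CDH24 reached 1 FPKM in all 3 controls, and N-cadherin, CDH2, was at 0.919, 0.412 and 0.108 FPKM. Of 23 claudins 7 reached 1 FPKM in all 3, led by CLDN1 and CLDN4, and CLDN3 was at most 0.538 FPKM.

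Of 34 luminal urothelial markers 25 reached 1 FPKM in all 3 controls, against 48.6% of all entries, with a median of 20.6 FPKM. Their sums were 4484, 3732 and 4032 FPKM in replicates 1 to 3. Keratins of simple and luminal epithelium were high on the list: KRT19 stood at 1927, 873 and 731 FPKM and KRT7 at 828, 1105 and 811 FPKM. KRT8 stood at 640, 465 and 223 FPKM, lowest in replicate 3, and KRT18 at 331, 264 and 304 FPKM. S100P, a calcium-binding protein of luminal tumors, stood at 321, 563 and 993 FPKM. The surface antigen PSCA was at 7.08, 12.8 and 68.9 FPKM, high in replicate 3 only.

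Uroplakins were split. UPK1B, UPK2, UPK3B and UPK3BL reached 1 FPKM in all 3 libraries; UPK1B stood at 12.9, 12.6 and 20.7 FPKM and UPK2 at 14.4, 6.05 and 13.9 FPKM. UPK1A, the partner of UPK2 in the membrane plaque, was at 0.137, 0 and 0.105 FPKM and UPK3A was at 0, 0.0548 and 0.0628 FPKM. KRT20, the umbrella cell keratin, was listed at 0 in replicates 1 and 2 and at 0.0475 FPKM in replicate 3. TMPRSS2, SPINK1 and SNX31 were also under 1 FPKM in all 3.

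KRT17 and KRT5 exceeded the luminal keratins KRT19 and KRT7 in replicates 1 and 2 but not in replicate 3. Of 40 basal and squamous markers 23 reached 1 FPKM in all 3 controls, a share not far from the 48.6% of all entries, with a median of 17.6 FPKM. Their sums were 11706, 7091 and 4252 FPKM, against luminal sums of 4484, 3732 and 4032 FPKM, so the basal sum was far above the luminal sum in replicates 1 and 2 and just above it in replicate 3. This order rested on KRT17 (4417, 3025 and 410 FPKM) and KRT5 (3817, 1664 and 518 FPKM). Without that pair the basal sum lay below the luminal sum in every control. KRT13, a keratin of intermediate and stratified cells, stood at 1489, 707 and 1479 FPKM. TP63, the basal transcription factor, stood at 63.1, 137 and 84.9 FPKM, highest in replicate 2. ITGB4 and LAMB3, which anchor basal cells to laminin, stood at 173, 224 and 175 FPKM and at 200, 206 and 107 FPKM.

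Genes of squamous differentiation ranged widely. LOR, SPRR2A, S100A7 and DSC2 were listed at 0 in all 3 controls, and SPRR1B, KRT6C, SERPINB3 and SERPINB4 were at most 0.324 FPKM in any of them. IVL (involucrin), a cornified envelope protein, stood at 5.35, 12.6 and 7.99 FPKM. KRT14, the usual partner of KRT5, was at 46.3, 49.3 and 17.3 FPKM, far under KRT5 in every library. KRT6A, a keratin of wounded epithelium, stood at 97.3, 31.5 and 9.5 FPKM.

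**Figure D3:**
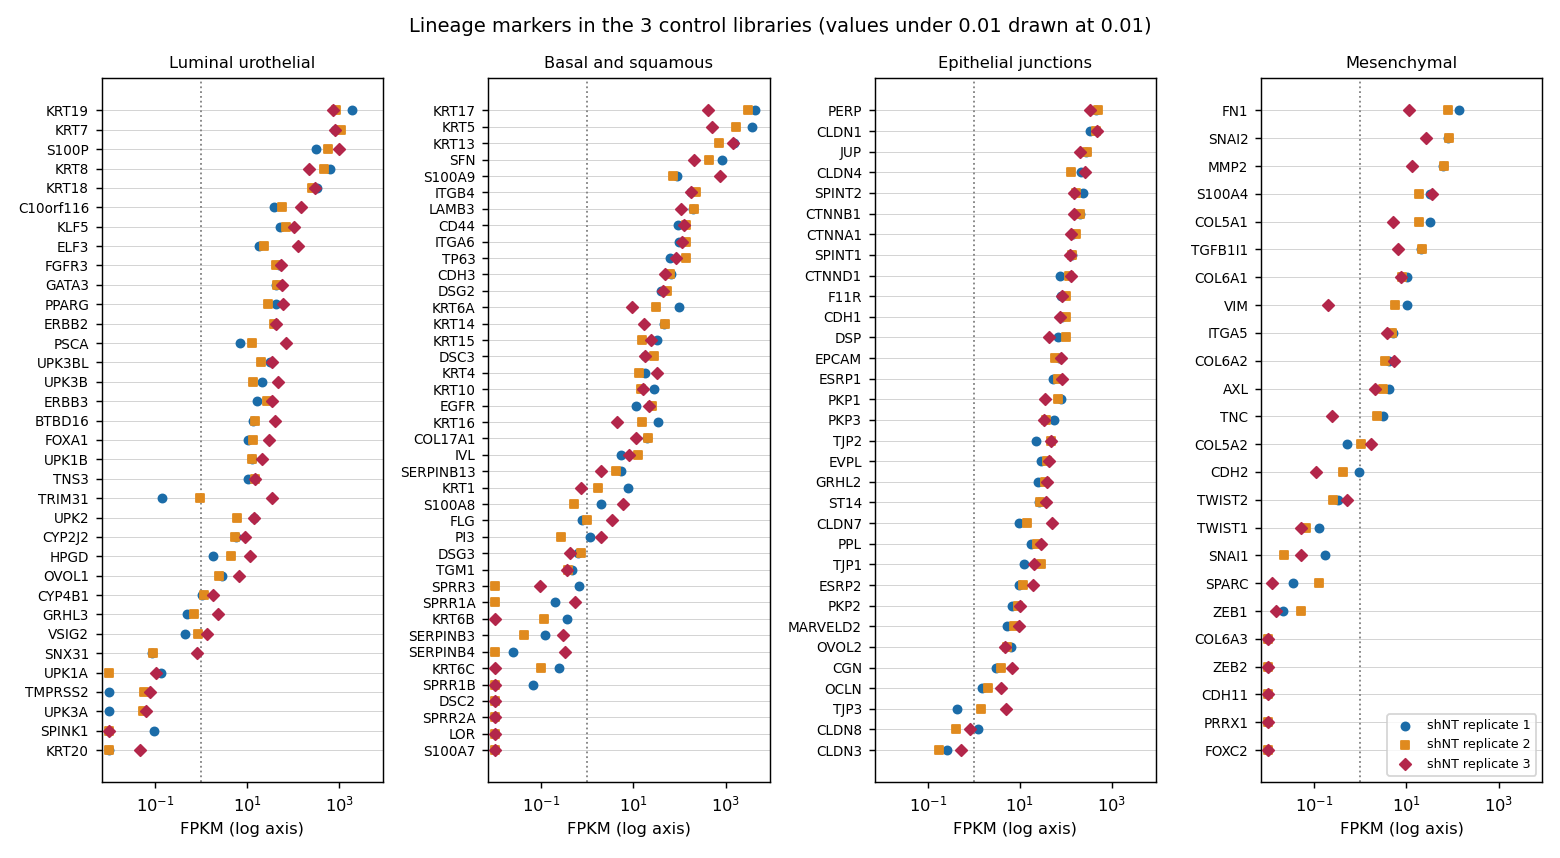
Each row is a gene (most members of each list are drawn) and each mark is its FPKM in shNT replicate 1 (circle), 2 (square) or 3 (diamond), on a log axis with values under 0.01 drawn at 0.01 and a dotted line at 1 FPKM. The diamonds of replicate 3 lie left of the others for KRT17, KRT5, FN1 and VIM and right of them for TRIM31, PSCA, ELF3 and S100A9.

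Only 15 of 55 keratin genes reached 1 FPKM in all 3 controls, and 14 were listed at 0 in all 3. The family summed to 13735, 8271 and 4609 FPKM, or 1.92% ± 0.807 (SD, n = 3) of the summed FPKM. The order of its members changed with the library: KRT17 and KRT5 led in replicates 1 and 2, while KRT13 led in replicate 3, followed by KRT7 and KRT19. For KRT7 and KRT18 the libraries differed by less than for the basal pair. KRT8, at 640, 465 and 223 FPKM, was lowest in replicate 3 as that pair was.

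Of 25 mesenchymal markers 11 reached 1 FPKM in all 3 controls, a share near the 48.6% of all entries, and 4, ZEB2, CDH11, PRRX1 and FOXC2, were listed at 0. FN1 (fibronectin) stood at 141, 79.9 and 11.3 FPKM and MMP2, a matrix protease, at 62.8, 65.3 and 12.9 FPKM. SNAI2 (Slug), a transcription factor also of normal basal cells, stood at 79.5, 86 and 26.8 FPKM, whereas SNAI1 was at most 0.172 FPKM and TWIST1 at most 0.125 FPKM. The sums over the list were 670, 443 and 170 FPKM, so replicate 3 was again the lowest. VIM (vimentin) was at 10.4, 5.68 and 0.201 FPKM.

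Markers of other cell types were near 0 with a few exceptions. Of 18 immune genes only CD68, a lysosomal protein, reached 1 FPKM in all 3 controls (3.99, 4.97 and 12.1 FPKM), while PTPRC (CD45) was at most 0.0431 FPKM. Of 10 endothelial genes only EGFL7 did so (26.3, 14.5 and 26 FPKM), while TIE1 and TEK were listed at 0. Of 11 fibroblast genes 3 did: LUM (lumican) stood at 201, 408 and 310 FPKM, COL1A1 at 4.81, 6.43 and 2.19 FPKM and ACTA2 at 3.5, 2.07 and 4.77 FPKM. The defining fibroblast genes COL1A2 and POSTN were listed at 0 in all 3, and DCN and PDGFRA were at most 0.0711 and 0.00636 FPKM. The libraries came from 1 cell line. In bulk RNA, a few cells with much of a transcript and many cells with little of it cannot be told apart.

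Markers of other epithelia were as low. None of 12 kidney and lung genes and none of 6 melanocyte genes reached 1 FPKM in all 3 controls. Of 14 gut and liver genes CDX2, an intestinal transcription factor, did (1.53, 1.29 and 2.44 FPKM), and of 13 prostate and breast genes ACPP (12.2, 11 and 9.35 FPKM) and HOXB13 (1.8, 1.66 and 1.75 FPKM) did. Of 15 neuroendocrine and neural genes only MBP did (3.26, 5.51 and 9.25 FPKM), and INSM1 was listed at 0. Of the 8 smooth muscle genes listed only SMTN did (10.8, 9.15 and 3.58 FPKM). That list did not hold the actin-binding gene TAGLN (161, 101 and 2.19 FPKM) or the myosin gene MYL9 (103, 78.9 and 8.17 FPKM), so it does not cover all contractile genes.

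Transcription factors of both urothelial programs were present together. Of 46 factors and Notch genes 34 reached 1 FPKM in all 3 controls, with a median of 11.9 FPKM. Beside TP63, KLF5 stood at 51.1, 71.8 and 106 FPKM and HES1, a Notch target, at 69.3, 38.3 and 115 FPKM. The luminal factors GATA3 and PPARG stood at 41.7, 44.7 and 58.3 FPKM and at 42.3, 28.5 and 59.7 FPKM, with RXRA, the partner of PPARG, at 61.6, 61.6 and 87.6 FPKM. FOXA1 was lower at 10.3, 13.8 and 29.6 FPKM. ELF3, an epithelial factor downstream of PPARG, stood at 18.2 and 22.9 FPKM in replicates 1 and 2 and at 128 FPKM in replicate 3. ISL1 was listed at 0.

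HOX genes are known for marking position along the body axis. Of 39 members 21 reached 1 FPKM in all 3 controls, a share near the 48.6% of all entries. HOXB7 led at 28.7, 23.9 and 20.7 FPKM, with HOXB6 at 14.9, 14.5 and 15.7 FPKM. HOXA9 and HOXC12 were listed at 0, and HOXA10 and HOXD13 were at most 0.0195 FPKM. The sums over the family, 127, 114 and 118 FPKM, lay close together in the 3 libraries.

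Genes known from bladder cancer were nearly all expressed. Of 51 with an entry, 46 reached 1 FPKM in all 3 controls. PVRL4 (nectin-4), a surface protein targeted by an antibody drug in bladder cancer, stood at 4.55, 3.46 and 9.25 FPKM. FGFR3, a growth factor receptor often mutated in luminal papillary tumors, stood at 50.4, 42.9 and 53.7 FPKM, and its neighbour TACC3, a spindle protein and known fusion partner of FGFR3, at 114, 68.3 and 71.2 FPKM. FPKM of a whole gene does not show whether a transcript is a fusion. MYC was at 103, 76 and 239 FPKM and TXNIP, a brake on glucose uptake, at 50.4, 70.8 and 332 FPKM, both highest in replicate 3.

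The tumor suppressors named here were at moderate levels except at 1 locus. RB1 stood at 9.2, 15.3 and 9.1 FPKM and the chromatin genes ARID1A and KDM6A at 13.9, 24 and 21 FPKM and at 11.7, 24.8 and 9.51 FPKM. CDKN2A and CDKN2B, which encode inhibitors of the cell-cycle kinases CDK4 and CDK6, were listed at 0 in all 3 controls. Their neighbours in RefSeq order on chromosome 9 were low as well: MTAP, a methionine salvage enzyme, was at 0.161, 0.175 and 0.192 FPKM, and DMRTA1 and 16 of 16 interferon genes were listed at 0. Interferon genes are silent in most cells. Within the same run KLHL9 stood at 9.49, 15.8 and 12.5 FPKM, and farther out MLLT3 stood at 11, 11.8 and 13.4 FPKM and CAAP1 at 5.49, 6.80 and 6.46 FPKM. The neighbours were named for their position. TERT, the catalytic subunit of telomerase, was near the detection level at 1.05, 0.718 and 1.41 FPKM, and CD274 (PD-L1) was at 0.329, 0.691 and 0.814 FPKM.

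**Figure D4:**
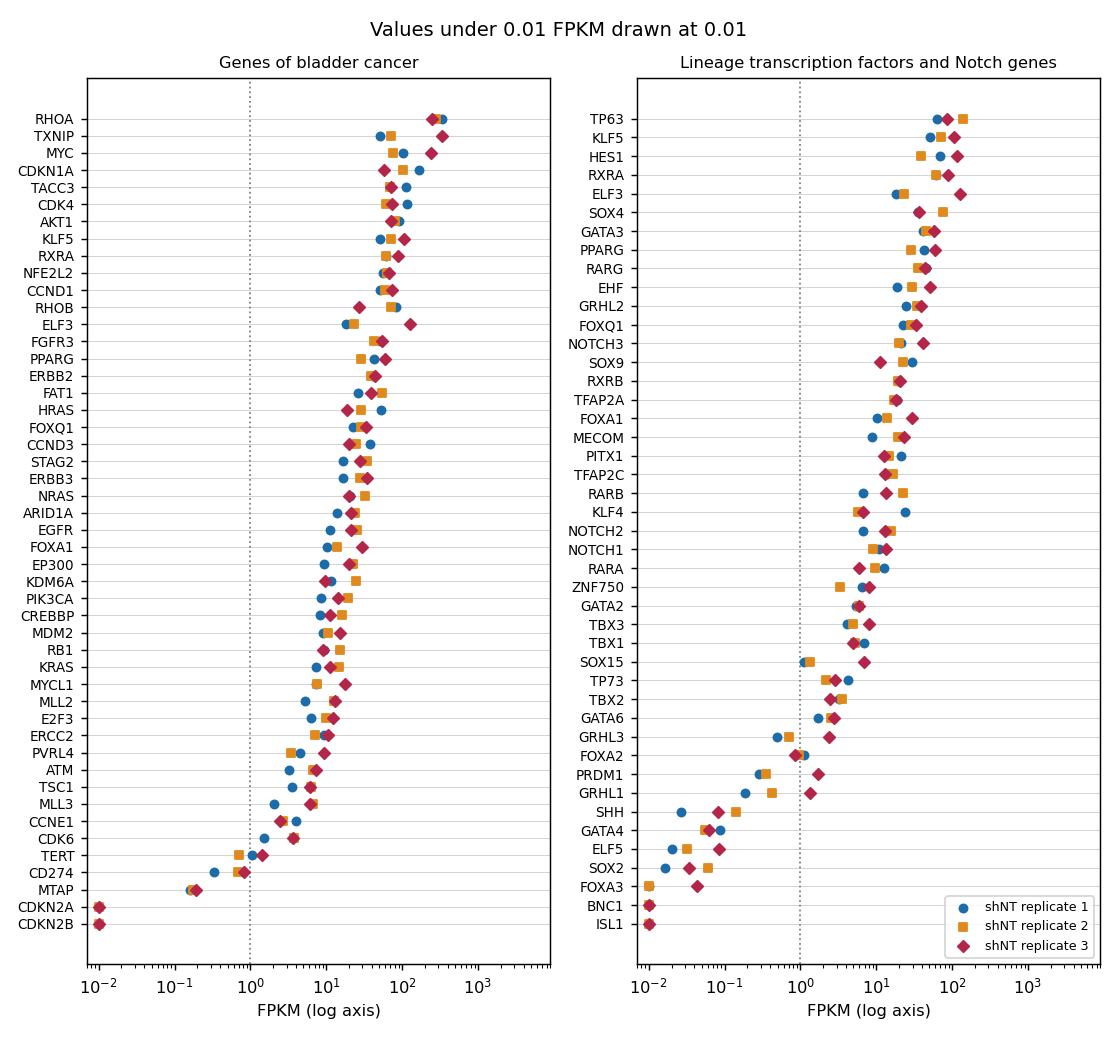
FPKM of most of the bladder cancer genes (left) and lineage transcription factors with Notch genes (right) in the 3 control libraries, on a log axis with values under 0.01 drawn at 0.01 and a dotted line at 1 FPKM. CDKN2A and CDKN2B sit at the left edge in all 3 libraries, with MTAP next to them at 0.161 to 0.192 FPKM.

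Of 36 receptor tyrosine kinases 18 reached 1 FPKM in all 3 controls, and of 51 secreted ligands and cytokines 26 did, both near the 48.6% of all entries. DDR1, a collagen receptor, led at 146, 155 and 164 FPKM, followed by FGFR3 and by ERBB2 (HER2) at 40.9, 39.2 and 43.7 FPKM. MET stood at 23.9, 46 and 51.8 FPKM and EGFR at 11.4, 25.4 and 21.5 FPKM, while KIT and PDGFRA were at most 0.0162 and 0.00636 FPKM. Of the ligands MDK (midkine) led at 180, 135 and 105 FPKM, and WNT5A stood at 18.9, 24.8 and 79 FPKM. VEGFA stood at 12.7, 10.5 and 75.8 FPKM and the EGFR ligand HBEGF at 4.56, 3.73 and 36.2 FPKM, both high in replicate 3. CXCL1, CXCL2, CXCL3, CXCL5 and TNF were listed at 0 in all 3, with the caution above on exact zeros.

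Genes of division were expressed in all 3 libraries despite the medium without serum. All 22 mitotic genes and all 22 replication genes of the lists reached 1 FPKM in all 3 controls, with medians of 34.2 and 32.6 FPKM. TOP2A, which untangles DNA, stood at 66, 72.1 and 81.9 FPKM, CDK1, the mitotic kinase, at 102, 78.3 and 74.8 FPKM and PCNA, the clamp of replication, at 198, 152 and 134 FPKM. UBE2C, a short transcript for mitotic protein breakdown, stood at 294, 129 and 157 FPKM. These values give RNA levels and not the share of cells in cycle.

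Metabolic and detoxification genes ranked high. All 16 genes of glycolysis and lactate handling reached 1 FPKM in all 3 controls, with a median of 188 FPKM; HK2 was lowest at 3, 2.46 and 7.43 FPKM. Of 31 NRF2 target and detoxification genes 26 did so, with a median of 246 FPKM, and together they held 3.50% ± 0.439 (SD, n = 3) of the summed FPKM, ferritins included. AKR1C3, an aldo-keto reductase, stood at 1207, 937 and 1097 FPKM, NQO1, a quinone reductase, at 402, 331 and 531 FPKM and ALDH3A1, an aldehyde dehydrogenase, at 487, 406 and 1172 FPKM. CYP1A1, the classical target of the aryl hydrocarbon receptor, swung most, at 11.2, 0.89 and 61.6 FPKM.

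The 23 early response genes summed to 2771, 1327 and 1300 FPKM in replicates 1 to 3, of which some were named for their difference between libraries. FOS, a transcription factor induced within minutes by serum and stress, stood at 705, 259 and 113 FPKM, ATF3 at 305, 48.1 and 21.9 FPKM, FOSB at 199, 52.7 and 19 FPKM and DUSP1, a MAP kinase phosphatase, at 181, 61.2 and 13.2 FPKM. Replicate 1 was the highest and replicate 3 the lowest in each of these 4. JUNB stood at 211, 219 and 221 FPKM and was among the 8 steadiest genes.

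Among long noncoding RNAs 20 of 27 reached 1 FPKM in all 3 controls. NEAT1, the scaffold of paraspeckles, stood at 288, 453 and 572 FPKM, GAS5 at 495, 304 and 452 FPKM and H19, an imprinted RNA, at 150, 59.2 and 483 FPKM. UCA1, first described in bladder cancer, stood at 29.8, 56 and 57.4 FPKM. MEG3 was listed at 0.

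In several large tissue-specific families most members were listed at 0, with the caution above on exact zeros. None of 372 olfactory receptor genes reached 1 FPKM in all 3 controls and 329 were listed at 0; none of 88 keratin-associated protein genes of hair did and 79 were listed at 0. Of 75 entries matched as cancer-testis antigens 66 were listed at 0, and SSX2IP, which is a centrosome gene matched by its name and not an antigen, was the 1 that reached 1 FPKM. Of 72 histone genes 7 reached it, led by HIST1H2BK at 29.4, 19 and 16.2 FPKM. Most histone mRNAs lack a poly(A) tail, which the libraries selected for.

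The spread between the 3 controls was measured entry by entry. Over the 11944 entries at a mean of 1 FPKM or more the median CV was 21.6%, and in 2445 (20.5%) the highest library was over 2-fold the lowest. The median CV was 29.1% at 1 to 3 FPKM, 18.8% at 10 to 30 FPKM and 27.4% at 1000 FPKM or more. Pairs of controls correlated at a Spearman's rho of 0.931 to 0.955 across entries, which are not independent. They had median absolute differences of 0.232 to 0.365 on the log2(FPKM + 1) scale, and 622 to 1126 entries lay more than 1 unit apart on that scale. For low entries that asks for more than a 2-fold ratio of FPKM. Pairs of silenced libraries had a rho of 0.957 to 0.984 and 91 to 505 such entries. All pairs used the 11944 entries chosen by their mean in the controls, so control and silenced pairs do not stand on equal terms. The closest of all pairs crossed the groups: shNT replicate 2 and sh2 replicate 2 had a rho of 0.994 and 20 entries more than 1 unit apart. No test was made of these pairs, which share libraries.

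Some abundant genes hardly differed between the controls. Among genes at 100 FPKM or more, the RNA-binding protein EWSR1 stood at 133, 132 and 130 FPKM with a CV of 1.27%. TFG of the secretory pathway, GANAB, the membrane linker EZR, HNRNPA2B1, JUNB and APLP2 were also among the 8 steadiest.

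Replicate 3 lay more than 1 log2 unit above both other controls in 197 entries (1.65%) and below both in 205 (1.72%), against 107 and 183 for replicate 1 and 48 and 22 for replicate 2. The highest genes of replicate 3 relative to the others were taken among entries at a mean of 10 FPKM or more. They were TRIM31, a luminal ubiquitin ligase (0.144, 0.942 and 34.7 FPKM), CYP1A1, the stress cytokine GDF15 (1.67, 1.4 and 28.9 FPKM) and LCN2 (4.22, 5.74 and 66.3 FPKM). S100A9 (88.5, 71.5 and 767 FPKM), the water and glycerol channel AQP3 (20.9, 31 and 215 FPKM), ASNS and HBEGF were the others. TRIM31, CYP1A1, GDF15, LCN2, ASNS and HBEGF reached that mean only through replicate 3, so their place here rests on it. In the 6 silenced libraries TRIM31 lay between 0.314 and 1.32 FPKM and LCN2 between 2.78 and 7 FPKM, so replicate 3 was above all 8 other libraries for both. CYP1A1 ran from 0.684 to 75.4 FPKM in the silenced libraries and ASNS from 5.41 to 84.4 FPKM, ranges that hold all 3 controls.

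Among the lowest genes of replicate 3, TAGLN (transgelin, an actin-binding protein) stood at 161, 101 and 2.19 FPKM, TUBA1A at 82.6, 78.6 and 5.9 FPKM and MYL9, a myosin light chain, at 103, 78.9 and 8.17 FPKM, and KRT17, FN1 and DUSP1 were also among the 8 lowest. The silenced libraries ranged from 101 to 353 FPKM for TAGLN and from 66.7 to 198 FPKM for MYL9. Over all entries 0.519% lay more than 1 log2 unit above all 8 other libraries in replicate 3 and 0.728% below. Of 14 mesenchymal markers at a mean of 1 FPKM or more over the 9 libraries 7 were more than 1 log2 unit below all 8 others in replicate 3 and 0 were above. Of 27 luminal markers 5 were above (ELF3, PSCA, HPGD, C10orf116 and TRIM31) and 1, KRT8, was below. TRIM31 was at 0.144 and 0.942 FPKM in replicates 1 and 2 and at most 1.32 FPKM in the silenced libraries, so its place in the 27 rests largely on replicate 3. Of 28 basal and squamous markers 1, S100A9, was above and 5 were below (KRT5, KRT6A, KRT16, KRT17 and SFN). Of 80 ribosomal protein genes, 22 mitotic genes and 22 replication genes none was apart in replicate 3. The lists were chosen with earlier results of these data known, so these counts are a description and no test.

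**Figure D5:**
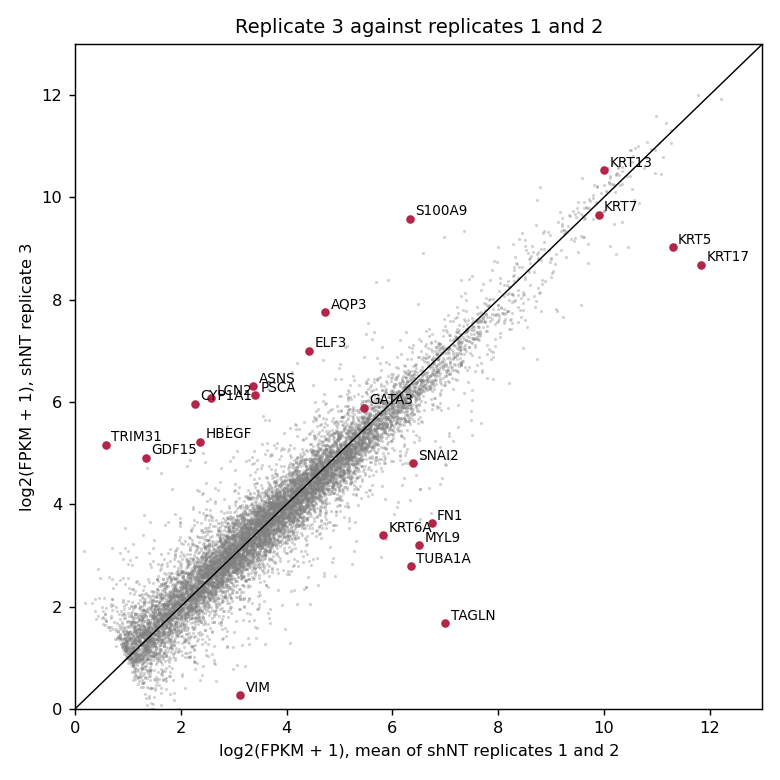
Each point is an entry at a mean of 1 FPKM or more, with the mean log2(FPKM + 1) of shNT replicates 1 and 2 on the horizontal axis, that of replicate 3 on the vertical axis, and a line of equality. Named genes in red include TRIM31, GDF15, LCN2 and S100A9 far above the line and TAGLN, VIM, FN1, KRT5 and KRT17 far below it, while GATA3 and KRT7 lie near it.

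Transcript length moved with the deviation of each library. Over 11501 of the 11944 entries that had a length, the deviation of replicate 1 from the other controls ran against length (Spearman's rho -0.57 across genes). The deviation ran with length in replicate 2 (0.52) and replicate 3 (0.24). Each deviation is taken against the other controls, so the trends are not independent of each other. The shortest 10% of transcripts (up to 1371 bases) had a median deviation of 0.53 in replicate 1, -0.34 in replicate 2 and -0.19 in replicate 3 on the log2(FPKM + 1) scale, and the longest 10% (from 7383 bases) had -0.47, 0.32 and 0.16. Ribosomal protein genes are short, and their summed FPKM was 97341, 54722 and 81217 in replicates 1 to 3. Long genes such as DST, a cytoskeletal linker (118, 408 and 87.4 FPKM), were among the highest in replicate 2 relative to the other controls. In the silenced libraries DST lay between 225 and 490 FPKM, a range that holds replicate 2 and leaves replicates 1 and 3 below. The part of length in any gene's spread was not tested.

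Against the silenced libraries the baseline genes made almost no calls. Of 11952 entries tested with limma 1 passed an adjusted p of 0.05, which is 0.00837% of them, and it was STAG2 itself; 1504 had an unadjusted p under 0.05. None of the 25 and none of the 100 most abundant control entries was called. Of the 25, 19 had a lower value in the silenced mean, with a median difference of -0.46 on the log2 scale against -0.02 over all entries. The 25 were picked for high means in these same controls, which by itself favors a lower value elsewhere. Their count and median are therefore no test of a change, and 13 of them were ribosomal protein genes. Of the 80 ribosomal protein genes tested 79 had a lower value, with a median of -0.52 and a smallest adjusted p of 0.342, and their summed FPKM was highest in replicate 1; the part of that library in the difference was not tested. For luminal, basal, junction and mesenchymal markers 0 of 27, 28, 30 and 14 tested were called, with medians of -0.14, 0.38, 0.06 and 0.68 on the log2 scale. The part of replicate 3, in which basal and mesenchymal members lay apart as given above, was not tested in these medians. A p that misses the threshold does not show that the levels were alike.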

How the data were processed

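The authors deposited 1 table of FPKM values. The submitters' processing notes name hg19; for the aligner, quantifier and annotation, a name is not given in the sources used here. Per the labels, RNA was poly(A)+ and stranded. Of 23370 entries 92 spike-ins were dropped and 27 with names turned into dates were kept unnamed. Decimal points lost by spreadsheet damage were restored: 3400 of 69834 control values (4.87%) were divided by 1000, by the reading nearer to the gene's values that kept a point; 440 had no such value. Of control values from 100 to 1000 FPKM, 90.3% were restored ones.

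Levels are means over the 3 controls, with SD; detection means 1 FPKM. Silenced and control libraries were compared with limma (version 3.58.1, run under R 4.3.3) after a log2(FPKM + 1) transform (variance trend, two-sided, Benjamini-Hochberg, entries at a mean of 1 FPKM or more over 9 libraries, threshold 0.05), tested on simulated data. Fold changes on this scale understate those of low genes. The main fit used the groups only, and a fit with the replicate numbers as a block was run as an alternative. Replicate numbers were taken to pair the libraries by the data, as the labels do not say what a number marks. Deviations of same-numbered libraries of different groups had r 0.118 to 0.491 in 9 pairs. Differently numbered libraries had r -0.629 to 0.205 in 18 pairs, so the ranges overlapped.

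Named genes were the 25 most abundant entries, the highest 8 and lowest 6 members of each of 37 lists (all members for cancer genes and other cell types), the 8 highest and lowest genes of each library (at a mean of 10 FPKM or more), and the 8 steadiest genes (at 100 FPKM or more). CDH1, CDH2, EPCAM, VIM, SNAI1, TWIST1, KRT14, IVL, SERPINB3, HPGD, NQO1 and UCA1 fall outside this rule and were named after their values were seen. Some genes that the rule names are not reported here, though they count in totals. The members and lists were chosen with earlier results of these data known. Mitochondrially encoded genes, 1 of the lists, had 0 entries. Promoters and the microRNA came from RefSeq (GRCh38.p14), matching 15531 entries; groups with under 80% matched were left out. Python 3.11.15 with pandas 2.3.3 and scipy 1.17.1 was used.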

Additional observations from a re-analysis of the deposited data

How the results depend on the processing

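Depth is not given, so no counting interval stands beside any value, and exact zeros may be failed estimates. The counts of expressed entries and of entries listed at 0 stayed within 1.5 times under every alternative run. The share of summed FPKM in the 100 most abundant entries was 23.0% with ribosomal protein genes and copies of mitochondrial RNA left out, and 27.2% to 30.2% leaving out 1 control each. The median absolute log2 difference between controls was 0.232 to 0.365 leaving out 1 control each. Entries in which replicate 3 lay apart numbered 207 instead of 402 at a mean of 10 FPKM or more, as fewer entries were tested, and 642 without shNT replicate 1 and 1133 without shNT replicate 2, where 1 library was left to compare with. List counts moved for 13 of 36 lists at a detection level of 0.1 FPKM and 11 at 5 FPKM, for 2 without shNT replicate 1 and for 1 without shNT replicate 3.

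STAG2 differed by -2.36 with no filter (adjusted p 0.0616, limma), where LOC100130348 was the 1 entry called, and by -2.30 without shNT replicate 3 (adjusted p 0.0561), where 0 were called and 1366 had an unadjusted p under 0.05. Leaving out 1 library each, its difference ran from -2.64 to -2.14 and the entries called from 0 to 3; the cause was not tested. The 3 came without shNT replicate 2 and were STAG2, PHLDB2 and HEG1. With the replicate block 1 entry was called, STAG2, at -2.36 (adjusted p 0.00466, limma), and the block changed no other call in that fit. In the blocked fit 2056 entries had an unadjusted p under 0.05. Permuting within replicate numbers, chosen after seeing the data, gave an exact p of 0.0741 for STAG2, the smallest possible. Spike-in scaling moved the median of all entries from -0.02 to 0.14.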
